A study of Mus musculus with 6 samples.

Results

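Opposite-strand transcripts are RNAs named after the coding gene that lies beside or across from them on the other DNA strand. Among 24453 gene rows, 154 had such a symbol, chosen by spelling alone: a capital letter, at least 3 further characters, and an ending in "os" with or without 1 digit. Removing the ending gave a coding partner for 152 of them, 145 genes in all, of which 7 carried 2 members each. RefSeq lists 9 of the 154 as protein coding, so the label of noncoding transcripts does not cover every row. Selenos, the gene of selenoprotein S, matched by spelling only. Selenos and Zbtb8os had no partner row.

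The counts came from bulk RNA sequencing of sorted back-skin cells of newborn mice (postnatal day 0). There were 3 libraries labelled Ring1a/b 2KO, with the genotype Ring1a-/- Ring1b-/-, and 3 labelled control, for which no genotype beyond that word is given in the sources used here. Nor is the deletion's driver, the strain, or whether each library is a separate animal given there, so p-values measure the spread between these libraries. The labels call the cells hair follicle cells, whereas the attached protocol describes a gate for interfollicular epidermis.

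RING1A and RING1B are the catalytic subunits of Polycomb repressive complex 1, which marks histone H2A with ubiquitin and keeps developmental genes silent. The complex settles largely at CpG-rich promoters, and a noncoding transcript often starts from such a promoter, or within the gene, on the other strand. Transcripts of this kind are known beside many transcription factor genes of the embryo. Some share the partner's expression domains, and a few have been studied as regulators of their partner.

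Libraries labelled 2KO held 24.8 to 29.9 M counts (M, mega) and control-labelled libraries 28.2 to 30.8 M, so that 1 count was worth 0.0323 to 0.0392 CPM (counts per mega-count after TMM scaling). Ring1 did not separate the labelled groups. It was at 1.84, 7.34 and 14.1 CPM in the 2KO-labelled libraries and at 19.5, 22.4 and 3.37 CPM in the control-labelled ones. It did not pass (log2 fold change -0.96, edgeR adjusted p = 0.537). Rnf2, which encodes RING1B, was at 66.4 to 89.2 CPM in 2KO-labelled libraries and 47.1 to 79.5 CPM in the control-labelled ones. It did not pass either (log2 fold change 0.25, edgeR adjusted p = 0.615). The deleted part of either gene is not stated in the labels. Xist, which marks female cells, was at 5361, 4952 and 10.4 CPM in the 2KO-labelled libraries and at 2.48, 9.27 and 4555 CPM in the control-labelled ones, so it was high in 2KO replicates 1 and 2 and control replicate 3. Every direction below is therefore one between libraries so labelled. Markers of basal epithelium (Epcam, Itga6, Krt14, Krt5 and Trp63) summed to 17166 to 24738 CPM in 2KO-labelled libraries and 11999 to 22962 in the control-labelled ones. Those of the follicle (Krt17, Sox9, Lhx2, Shh and Krt79) summed to 1530 to 2071 and 1323 to 1572 CPM in the same order. Shh fell (log2 fold change -1.94) and the rest did not pass. Krt17 and Krt79 had log2 fold changes of 0.89 and 1.07, and Lhx2 and Sox9 had -0.93 and -0.12. Those of interfollicular epidermis (Krt1, Krt10, Lor and Ly6a) summed to 814, 2802 and 2998 CPM in 2KO-labelled libraries and 2864, 8678 and 10777 CPM in the control-labelled ones. Krt1 and Krt10 made up nearly all of that sum, Lor had a log2 fold change of 0.75, and none of the 4 passed. Those of Merkel cells summed to 50.7, 17.5 and 18.1 CPM in 2KO-labelled libraries and 7.13, 15.3 and 7.91 CPM in the control-labelled ones. Krt18, which rose, made up 45.7, 12.8 and 13.2 CPM of the 2KO-labelled sums, and the other 4 tested did not pass. Of these 4, Krt8, Krt20 and Isl1 had log2 fold changes of -0.98, -2.56 and -0.51, and Sox2 had 1.17. Atoh1, not tested, had 0, 0 and 5 counts in 2KO-labelled libraries and 25, 108 and 7 in the control-labelled ones. The part of cell composition in the results below was not tested. Ly6a, the gene of the gate's Sca1 antigen, was at 1.92 to 7.28 CPM in 2KO-labelled libraries and 3.02 to 5.62 in the control-labelled ones. In bulk libraries, fewer cells of a type and less RNA per cell cannot be told apart.

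Of the 154 members, 25 had no count in any library, 101 had counts in both groups, 19 only in 2KO-labelled libraries and 9 only in the control-labelled ones. The same split over all genes is not given here, so nothing is read from the 19 and 9. Each library detected between 91 and 110 members. Members passed the low-count filter of edgeR in 73 cases and 81 were not tested. The tested members were mostly faint: their median level was 1.83 CPM, against 17.8 CPM over all tested genes. The tested member of lowest mean level was Kcnmb4os2 (0.334 CPM), and the untested one of highest mean level was Rab11fip4os1 (0.464 CPM), since the filter asks for counts in enough libraries, not for a mean.

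Set against control-labelled libraries, 4 tested members rose in the 2KO-labelled ones (Foxl2os, Hoxa11os, Vax2os and Igf2os), 1 fell (Cep83os) and 68 did not pass. The threshold was an adjusted p under 0.05 in edgeR's quasi-likelihood test, adjusted over all tested genes. The 4 rises are 5.48% of the tested members, and 6.61% of all 14972 tested genes were called higher. The 1 fall is 1.37%, beside 2.42% of all tested genes called lower. Called in either direction were 9.02% of all tested genes. As a share, the members were thus near the background in both directions. With both replicate-3 libraries left out, 2 of 76 tested members rose (Foxl2os and Hoxa11os) and 0 fell. In that setting 309 of 15130 tested genes were called higher and 72 lower. Without counts in control-labelled libraries, a member passed the filter through its 2KO-labelled counts alone, so no direction is read from the share of tested members that rose. The partners of all 4 risen members rose as well, and the partner of the fallen one did not pass.

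**Figure D1:**
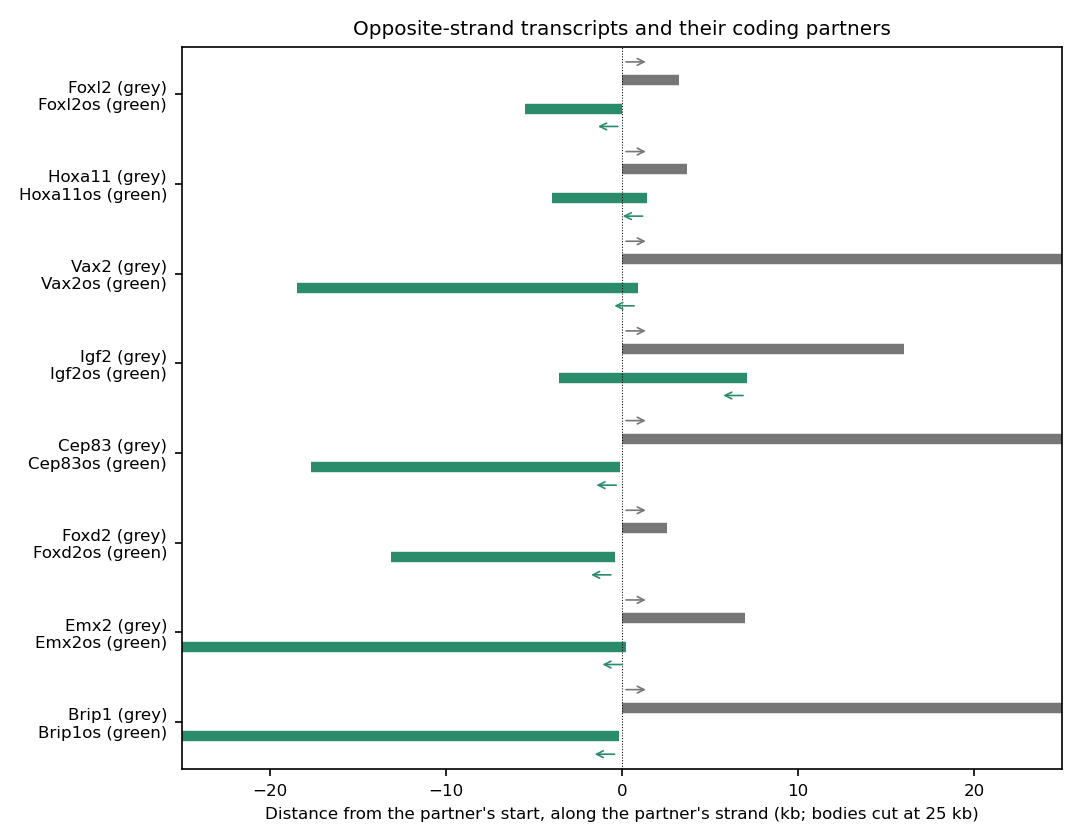
Position of 8 opposite-strand transcripts (green) and their coding partners (grey), in kb from the partner's start along the partner's strand, with arrows for the direction of transcription. Foxl2os, Vax2os, Cep83os, Foxd2os, Emx2os and Brip1os start within 1 kb of their partner, and Hoxa11os and Igf2os start inside the partner's body.

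Foxl2os lies beside Foxl2, a forkhead transcription factor of the ovary and eyelid. Its row covers chromosome 9, 98949781 to 98955299, minus strand (GENCODE vM21, GRCm38), and its start lies 11 bases from that of Foxl2, with which it shares 12 of its 3315 exon bases. The first 60 bases of the transcript are shown because they hold that overlap. Capitals mark the 12 bases that are also exon of Foxl2 on the other strand (chr9:98955240-98955299, minus strand, GENCODE vM21).
Foxl2os: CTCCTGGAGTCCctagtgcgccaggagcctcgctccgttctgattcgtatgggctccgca
Foxl2os was at 7.65, 2.97 and 6.16 CPM (195, 89 and 157 counts) in the 2KO-labelled libraries and at 0 counts in all 3 control-labelled ones. The groups did not overlap. Against a floor of 3 counts over the control group it was at least 167-fold higher (edgeR adjusted p = 0.00202). Foxl2 was at 0.51, 1.13 and 3.22 CPM in the 2KO-labelled libraries and at 0 in the control ones, at least 48.5-fold higher (edgeR adjusted p = 0.0178). The order of the 3 libraries differed between the 2 transcripts: Foxl2os had 1500% of the counts of Foxl2 in 2KO replicate 1, 262% in replicate 2 and 191% in replicate 3. Per kilobase of exon, Foxl2os averaged 1.69 CPM and Foxl2 0.498 CPM in 2KO-labelled libraries. Foxl2 missed the threshold without 2KO replicate 3 (edgeR adjusted p = 0.0673) or control replicate 3 (0.0502), and with both left out (0.130), whereas Foxl2os passed in all 15 alternative settings.

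Hoxa11os lies across from Hoxa11, a homeobox gene of limb, kidney and uterus. In the mouse limb the antisense transcript and Hoxa11 mRNA are known to occupy complementary domains. Its row covers chromosome 6, 52244393 to 52249799, plus strand. It shares 800 of its 3073 exon bases with Hoxa11 (26.0%), and 47.6% with any annotated gene, among them rows known only by Gm names. Because no source used here states the strand setting of the counting, reads from the shared bases cannot be assigned to a strand. The RefSeq promoter window, 250 bases before to 50 after the start, holds 41 CG dinucleotides, more than 96.5% of all 32851 promoter windows in that table. It lies within the body of Hoxa11, with its start 850 bases from the one in GENCODE, and is shown with each CG in capitals, since CpG-rich sequence is where the complex is known to settle (chr6:52244993-52245292, plus strand, GRCm38.p6).
Hoxa11os: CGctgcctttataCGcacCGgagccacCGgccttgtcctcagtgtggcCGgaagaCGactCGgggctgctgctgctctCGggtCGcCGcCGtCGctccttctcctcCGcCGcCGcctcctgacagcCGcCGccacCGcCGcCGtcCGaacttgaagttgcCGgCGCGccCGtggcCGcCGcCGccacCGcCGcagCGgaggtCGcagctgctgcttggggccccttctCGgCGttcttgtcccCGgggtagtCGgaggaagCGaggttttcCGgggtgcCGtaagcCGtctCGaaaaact
Hoxa11os was at 2.24, 3.07 and 3.96 CPM (57, 92 and 101 counts) in the 2KO-labelled libraries and at 0 counts in all 3 control-labelled ones, at least 92.4-fold higher (edgeR adjusted p = 0.00362). Hoxa11 was at 2.08, 2.97 and 2.12 CPM in the 2KO-labelled libraries and at 0.106, 0 and 0.0327 CPM in the control-labelled ones (log2 fold change 5.59, SE 1.05, edgeR adjusted p = 0.0109). Both transcripts were thus near silent in every control library, and the groups did not overlap. Hoxa11os had 108%, 103% and 187% of the counts of Hoxa11 in 2KO replicates 1, 2 and 3. Hoxa11os passed in all 15 settings, and Hoxa11 did not pass once both replicate-3 libraries were left out (edgeR adjusted p = 0.107).

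Vax2os starts inside Vax2, a homeobox gene of the ventral eye, 937 bases beyond that gene's start. Its row covers chromosome 6, 83692806 to 83712201, minus strand. It shares no exon base with Vax2, while 15.7% of its exon bases overlap other annotated rows. Its promoter window, shown in the same way, holds 17 CG dinucleotides, more than 68.6% of all windows (chr6:83712152-83712451, minus strand, GRCm38.p6).
Vax2os: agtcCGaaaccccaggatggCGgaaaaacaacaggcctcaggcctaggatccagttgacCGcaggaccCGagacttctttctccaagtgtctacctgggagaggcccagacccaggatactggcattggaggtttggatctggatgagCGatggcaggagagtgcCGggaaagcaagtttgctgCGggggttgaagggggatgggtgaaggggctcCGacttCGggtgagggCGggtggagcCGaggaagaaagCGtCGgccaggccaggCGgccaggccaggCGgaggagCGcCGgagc
Vax2os was at 2.16, 3.67 and 4.98 CPM in the 2KO-labelled libraries and at 0.142, 0 and 0.0327 CPM in the control-labelled ones. The groups did not overlap, and the mean was 61.9-fold higher (log2 fold change 5.88, SE 1.02, edgeR adjusted p = 0.00759). Vax2 was at 1.22, 1.84 and 3.81 CPM in the 2KO-labelled libraries and had 1 count over the control-labelled ones, a ratio of pooled counts of 203 with a 95% exact Poisson interval, for counting error only, of 36.0 to 8057 (edgeR adjusted p = 0.0064). Both were highest in 2KO replicate 3 and lowest in 2KO replicate 1. With both replicate-3 libraries left out, neither passed (edgeR adjusted p = 0.115 for Vax2os and 0.0761 for Vax2).

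Igf2os is transcribed across Igf2, the imprinted gene of insulin-like growth factor 2, a fetal growth factor. Its row covers chromosome 7, 142659693 to 142670356, plus strand, and 98 of its 5337 exon bases (1.84%) are shared with exons of Igf2. A further row, Gm49394, brings the shared bases to 23.2%. Igf2os was at 25.8, 40.0 and 34.2 CPM in the 2KO-labelled libraries and at 1.63, 6.26 and 7.45 CPM in the control-labelled ones, where it had 46, 194 and 228 counts. The groups did not overlap. Its mean was 6.51-fold higher (log2 fold change 2.70, SE 0.49, edgeR adjusted p = 0.00964). Igf2 was at 1397, 2712 and 2079 CPM in the 2KO-labelled libraries and at 289, 733 and 933 CPM in the control-labelled ones (log2 fold change 1.66, SE 0.40, edgeR adjusted p = 0.0312). In both groups replicate 1 was the lowest for both transcripts. Igf2os counts were 1.85%, 1.47% and 1.64% of those of Igf2 in the 2KO-labelled libraries, against 0.565%, 0.855% and 0.799% in the control-labelled ones. This ratio did not overlap between the groups either. It also did not overlap in some pairs whose member did not pass, such as Mccc1os and Mccc1 (10.7% to 13.1% in 2KO-labelled libraries, 3.24% to 7.03% in the control-labelled ones). The share of all pairs without overlap is not given here, so nothing is read from it. With both replicate-3 libraries left out, neither Igf2os nor Igf2 passed (edgeR adjusted p = 0.0692 for Igf2os and 0.107 for Igf2). Igf2 also missed the threshold without 2KO replicate 2 (0.0976), 2KO replicate 3 (0.0797) or control replicate 2 (0.066), and with Xist as a covariate (0.0659). Igf2 is known to be abundant in fetal mesenchyme. The 7 dermal fibroblast markers summed to 733, 720 and 616 CPM in the 2KO-labelled libraries and 743, 400 and 533 CPM in the control-labelled ones, and 1 of the 6 tested, Pdgfra, rose. No marker of that list was at 0 in all libraries, and the part of such cells in the result was not tested.

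Cep83os was the member that fell. It starts 78 bases from Cep83, which encodes a protein of the distal appendages of the centriole, needed for cilium formation, and the 2 genes share no base. Its row covers chromosome 10, 94671025 to 94688576, minus strand. Cep83os was at 7.29, 6.54 and 7.73 CPM in the 2KO-labelled libraries and at 20.5, 16.7 and 15.8 CPM in the control-labelled ones. The groups did not overlap, and the mean in 2KO-labelled libraries was 0.406 times that in the control-labelled ones (log2 fold change -1.30, SE 0.27, edgeR adjusted p = 0.0157). Cep83 was at 67.1, 57.0 and 62.7 CPM in the 2KO-labelled libraries and at 68.5, 64.1 and 64.5 CPM in the control-labelled ones (log2 fold change -0.08, SE 0.17, edgeR adjusted p = 0.86). The noncoding transcript had 10.9%, 11.5% and 12.3% of the counts of Cep83 in 2KO-labelled libraries, against 30.0%, 26.0% and 24.5% in the control-labelled ones. The call was lost without 2KO replicate 2 (adjusted p = 0.0659) or control replicate 1 (0.0639). Leaving out both replicate-3 libraries (0.0965) or both replicate-1 libraries (0.0803) likewise ended it.

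**Figure D2:**
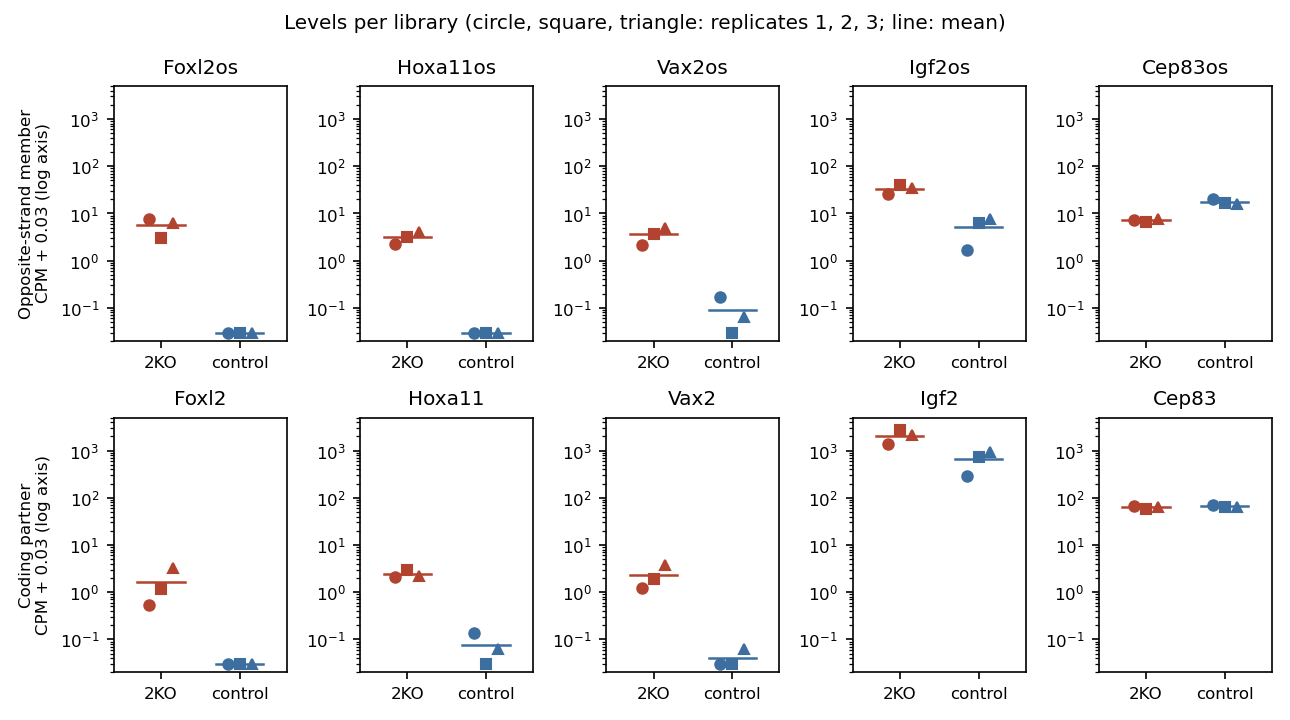
Level of the 5 members that passed the threshold (upper row) and of their coding partners (lower row) in each library, as CPM + 0.03 on a log axis. Each point is 1 library and each line the mean of 3. Foxl2os and Hoxa11os sit at the bottom of the axis in all 3 control-labelled libraries, and Cep83os is lower in 2KO-labelled libraries while the groups overlap for Cep83.

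There were 6 tested members that did not pass although their partner did. Foxd2os, which starts 384 bases from the forkhead gene Foxd2 and shares no base with it, had 43, 28 and 33 counts in the 2KO-labelled libraries and 4, 2 and 7 in the control-labelled ones. The groups did not overlap, with a mean of 1.31 ± 0.376 CPM in 2KO-labelled libraries and 0.145 ± 0.0822 CPM in the control-labelled ones (SD, n = 3 each), and the test missed the threshold (log2 fold change 3.13, SE 0.88, edgeR adjusted p = 0.0577). Foxd2os passed with DESeq2 (adjusted p = 0.0103). Foxd2 itself, at 1.06, 0.634 and 0.706 CPM in the 2KO-labelled libraries and 1 count over the control-labelled ones, passed with a ratio of 71.0 (95% exact Poisson interval 12.3 to 2846, edgeR adjusted p = 0.0231). It lost its call whichever single library was left out (edgeR adjusted p between 0.0584 and 0.115).

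Emx2os and Emx2, a homeobox gene of the forebrain and urogenital system, overlap by 264 bases at their starts. Emx2os had 97, 250 and 182 counts in the 2KO-labelled libraries and 0, 119 and 0 in the control-labelled ones, so that a single control library carried all of its control counts. The same library, control replicate 2, had the most Emx2 among the control ones: Emx2 was at 10.3, 14.5 and 15.4 CPM in the 2KO-labelled libraries and at 0.213, 2.62 and 0.0981 CPM in the control-labelled ones. Emx2os did not pass (log2 fold change 2.32, SE 1.44, edgeR adjusted p = 0.41). Without control replicate 2 it passed (edgeR adjusted p = 0.00222). Emx2 passed with all libraries (edgeR adjusted p = 0.0389). It lost its call without any 1 of the other 5 libraries (edgeR adjusted p between 0.0552 and 0.101).

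Fam219aos shares 66.2% of its exon bases with Fam219a. It was at 2.78, 5.61 and 0.981 CPM in the 2KO-labelled libraries and at 0.568, 0.0969 and 2.94 CPM in the control-labelled ones, and the groups overlapped (edgeR adjusted p = 0.522). Fam219a had 7.64 ± 0.22 CPM in 2KO-labelled libraries and 1.86 ± 1.08 CPM in the control-labelled ones (SD, n = 3 each, edgeR adjusted p = 0.031). Pitpnm2os1 overlaps only introns of Pitpnm2, the gene of a phosphatidylinositol transfer protein, and had 4.70 ± 1.26 CPM in 2KO-labelled libraries and 3.35 ± 0.826 CPM in the control-labelled ones (SD, n = 3 each, edgeR adjusted p = 0.604). Pitpnm2 was at 158 ± 12.4 CPM and 85 ± 16.4 CPM in the same order (edgeR adjusted p = 0.0182). Whether member and partner differed in fold change was not tested.

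Sox5 and Brip1 are the partners that fell. Sox5, a transcription factor of the SoxD group, was at 17.7 ± 0.417 CPM in 2KO-labelled libraries and 50.4 ± 21.7 CPM in the control-labelled ones (SD, n = 3 each, edgeR adjusted p = 0.0133). Sox5os3, which lies in its introns, had 1, 0 and 21 counts in the 2KO-labelled libraries and 41, 44 and 26 in the control-labelled ones, so 2KO replicate 3 stood far above the other 2, just under the lowest control library (edgeR adjusted p = 0.406). Brip1, a DNA helicase of the Fanconi anemia pathway, was at 9.69, 9.51 and 7.26 CPM in the 2KO-labelled libraries and at 29.4, 18.95 and 19.2 CPM in the control-labelled ones (log2 fold change -1.35, SE 0.29, edgeR adjusted p = 0.018). Brip1os, which starts 177 bases from Brip1, was at 28.3, 50.6 and 37.2 CPM in the 2KO-labelled libraries and at 51.9, 61.0 and 50.4 CPM in the control-labelled ones (log2 fold change -0.49, SE 0.24, edgeR adjusted p = 0.287). The groups overlapped by a small margin. Of the exon bases of Brip1os, 20.2% are shared with annotated exons of other genes, Ints2 and Med13. Brip1 lost its call without 2KO replicate 2 (edgeR adjusted p = 0.0561), 2KO replicate 3 (0.0645) or control replicate 1 (0.0753), with Xist as a covariate (0.0573), and with both replicate-3 (0.119) or both replicate-1 libraries (0.0757) left out.

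**Figure D3:**
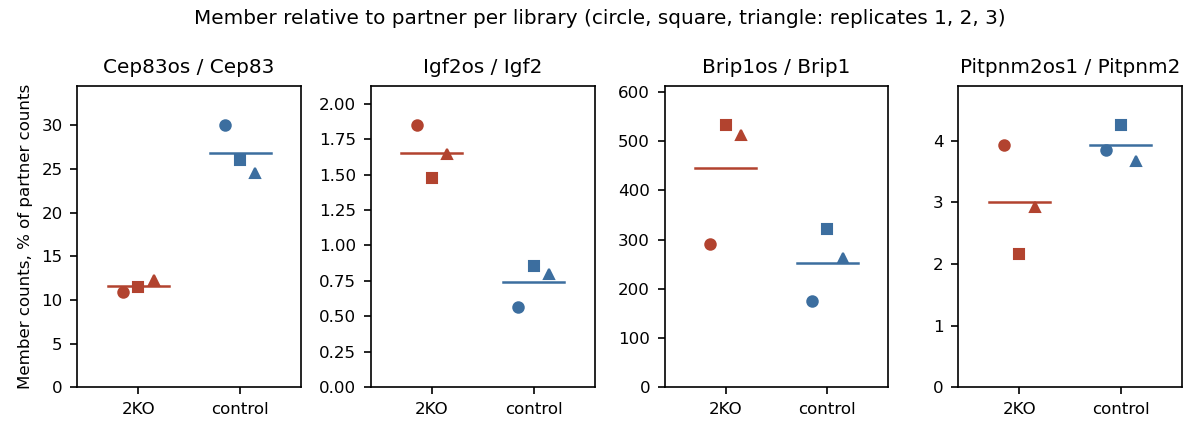
Counts of 4 members as a percentage of their partner's counts, with 1 point for each library and a line for the mean of 3. The groups do not overlap for Cep83os (10.9% to 12.3% in 2KO-labelled libraries, 24.5% to 30.0% in the control-labelled ones) and Igf2os, and overlap for Brip1os and Pitpnm2os1. Some pairs whose member did not pass have no overlap either, and the share over all pairs is not given.

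The most abundant tested members were Wdr83os, Brip1os, Slc7a6os, Selenos and Igf2os. Wdr83os, whose product is a small protein of the endoplasmic reticulum, was at 46.5, 75.9 and 30.0 CPM in the 2KO-labelled libraries and at 34.5, 55.0 and 71.8 CPM in the control-labelled ones (edgeR adjusted p = 0.938). Slc7a6os, also protein coding, was at 27.98 ± 6.8 CPM in 2KO-labelled libraries and 30.98 ± 3.95 CPM in the control-labelled ones (SD, n = 3 each, edgeR adjusted p = 0.806). Selenos was at 32.0, 33.3 and 31.1 CPM in the 2KO-labelled libraries and at 17.4, 18.3 and 22.2 CPM in the control-labelled ones, with no overlap (log2 fold change 0.73, SE 0.21, edgeR adjusted p = 0.0652). It passed with DESeq2 (adjusted p = 0.0166).

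Of the 68 tested members that did not pass, 53 had a log2 fold change between -1 and 1, and the whole range was -2.85 to 3.13. The lowest was that of Plet1os, named here after its values were seen. Its partner Plet1 encodes a surface protein known from the follicle junctional zone. Plet1os had 16, 22 and 6 counts in the 2KO-labelled libraries and 204, 88 and 48 in the control-labelled ones, and the groups did not overlap (edgeR adjusted p = 0.0507). It passed as lower in 5 of the 15 alternative settings: DESeq2, no low-count filter, a minimum of 1 CPM in 3 libraries, control replicate 3 left out, and the replicate block. Plet1 was at 132, 68.4 and 33.8 CPM in the 2KO-labelled libraries and at 132, 80.9 and 86.3 CPM in the control-labelled ones (edgeR adjusted p = 0.71).

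Libraries labelled 2KO lay wholly above the control-labelled ones for 8 tested members (11.0%) and wholly below for 7 (9.59%), beside 15.2% and 13.1% of all tested genes. An unadjusted p under 0.05 was reached by 11 members, 15.1% of those tested, beside 21.6% of all tested genes. The median log2 fold change was 0.09 over the tested members and -0.02 over all tested genes. The members summed to 326, 420 and 374 CPM in the 2KO-labelled libraries and to 308, 367 and 349 CPM in the control-labelled ones, so the summed level overlapped between the groups.

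Of 118 tested partners, 17 rose (14.4%, beside 6.61% of all tested genes) and 2 fell (1.69%, beside 2.42%), and 27 were not tested. With both replicate-3 libraries left out 6 rose and 0 fell, where 309 of 15130 tested genes were called higher and 72 lower. Without 2KO replicate 2 or without 2KO replicate 3, 11 rose, where 684 of 15441 and 767 of 15447 tested genes were called higher. Among the risen partners, Evx1, Foxl2 and Six3 had 0 counts in control-labelled libraries, and Foxd2 and Vax2 had 1 each. Such rows passed the filter almost wholly through their 2KO-labelled counts, so no direction is read from the share of tested partners that rose. The partners were deeper than the members, with a median level of 18.8 CPM. Members and partners were both tested in 71 pairs. Across these pairs the log2 fold changes of member and partner had a Pearson correlation of 0.84 and a Spearman correlation of 0.37. These are a description, since both rows come from the same 6 libraries. The strand setting is also not stated, so reads where rows overlap cannot be assigned to a strand. In the 60 pairs in which neither row passed, a subset set by the calls themselves, Pearson's r was 0.19. The fold changes had the same sign in 42 of the 71 pairs.

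**Figure D4:**
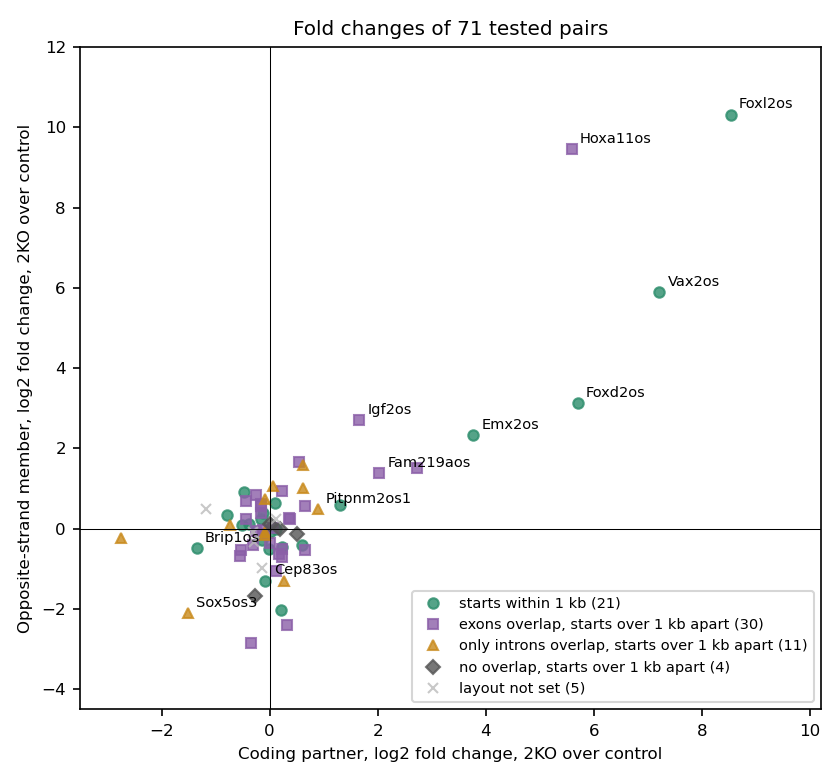
Log2 fold change of each opposite-strand member (vertical axis) against that of its coding partner (horizontal axis) for 71 pairs in which both were tested, with marks for the layout of the pair. Named points are pairs in which either row passed, and most of the other pairs lie near 0 on both axes. Values above about 8 are fitted against control libraries at 0 counts and depend on the fit's prior count.

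By the role of the partner, a grouping made with these results known, 24 members sit beside 23 genes of developmental transcription factors. Over all tested genes 6.61% were called higher and 2.42% lower, and since the groups were made after the calls were known, nothing is read from how their shares compare with these. Of these members 11 were tested, and 3 rose, 27.3% (Foxl2os, Hoxa11os and Vax2os). Of the 17 tested partners 9 rose, 52.9% (Emx2, Evx1, Foxd2, Foxl2, Hoxa11, Pax6, Six3, Tbx3 and Vax2), 1 fell, 5.88% (Sox5), and 7 did not pass. Of the 24 members, tested or not, 20 had counts in 2KO-labelled libraries and 12 in the control-labelled ones. The same split over all genes is not given here, so nothing is read from the 20 and 12. Dlx4os, Msx1os, Hoxb5os, Hoxd3os1 and Zfhx2os, beside further homeobox genes, were tested and did not pass. The neuronal group held 19 members beside 16 genes, and none of its 6 tested members passed (1 of them with an unadjusted p under 0.05), while 2 of its 12 tested partners rose (16.7%). Of 3 members beside imprinted genes (Igf2, Dio3 and Peg3), 1 was tested and rose, Igf2os. Among the 106 members beside other genes, 53 were tested, 0 rose by the edgeR test and 1 fell (1.89%), with 4 at an unadjusted p under 0.05. With DESeq2 the number of risen members in all roles together was 7 of 97 tested, beside 1492 of 16801 tested genes called higher.

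Of the 17 risen partners, 9 carried a member that was too faint to be tested by edgeR with all libraries. The pairs given here were chosen after their values were seen. Ppp2r2c, a regulatory subunit of protein phosphatase 2A, was at 44.6 ± 10.8 CPM in 2KO-labelled libraries and 1.85 ± 0.901 CPM in the control-labelled ones (SD, n = 3 each, edgeR adjusted p = 0.000465), while Ppp2r2cos had 22, 8 and 2 counts in the 2KO-labelled libraries and 0, 2 and 0 in the control-labelled ones. Kcnd3, a potassium channel, was at 36.2 ± 12.1 CPM and 2.78 ± 0.736 CPM in the same order (edgeR adjusted p = 0.000467), and Kcnd3os had 5, 19 and 8 counts in the 2KO-labelled libraries and 0, 0 and 1 in the control-labelled ones. Both faint members thus had most of their counts in 2KO-labelled libraries. Evx1os had 35, 24 and 0 counts in 2KO-labelled libraries and none in the control-labelled ones, beside Evx1, a homeobox gene of the posterior embryo, at 1.49, 0.601 and 0.589 CPM in 2KO-labelled libraries and 0 in the control ones. Evx1os was tested and called higher with DESeq2, and with edgeR once 2KO replicate 3 was left out.

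Tbx3, a T-box factor of limb and mammary gland, was at 51.0 ± 15.6 CPM in 2KO-labelled libraries and 2.95 ± 0.505 CPM in the control-labelled ones (SD, n = 3 each, edgeR adjusted p = 0.000182), whereas Tbx3os2 had 5, 0 and 2 counts in 2KO-labelled libraries and none in the control ones. Six3 and Tspan2 rose, and Six3os1 and Tspan2os had no count in any library. Pax6, a paired-box factor of the eye, was at 10.1 ± 1.7 CPM in 2KO-labelled libraries and 0.581 ± 0.352 CPM in the control-labelled ones (SD, n = 3 each, edgeR adjusted p = 0.00249), and Pax6os1 had 1 count in all. A rise of the coding gene was therefore not always accompanied by detectable counts of its opposite-strand row at this depth, where 3 counts over a group correspond to 0.0371 CPM in 2KO-labelled libraries and 0.0334 CPM in the control-labelled ones. For Uchl1 and Rbm46 the member's counts came mainly from 2KO replicate 3: Uchl1os had 0, 0 and 14 and Rbm46os 1, 0 and 11 in the 2KO-labelled libraries.

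Among untested members, 4 had counts in all libraries of 1 group and in none of the other. The share of all untested genes with such counts is not given here, so nothing is read from that number. Fhitos, in the introns of the tumor suppressor gene Fhit, had no count in the 2KO-labelled libraries and 35, 6 and 19 in the control-labelled ones, at least 18.5-fold lower. Stamos and Scpep1os likewise had no count in the 2KO-labelled libraries, and had 10, 5 and 2 counts and 5, 6 and 2 counts in the control-labelled ones. Tmem150cos had 1, 2 and 1 counts in the 2KO-labelled libraries and none in the control-labelled ones. Fhit was tested and did not pass (log2 fold change -1.07, SE 0.61, edgeR adjusted p = 0.365). With no low-count filter, and likewise with DESeq2, Fhitos passed as lower.

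Pairs were also grouped by layout. Starts lay within 1 kb of each other, on opposite strands, in 39 pairs. Of these members 21 were tested, 2 rose (9.52%) and 1 fell (4.76%), beside 6.61% and 2.42% of all tested genes. Of their 34 tested partners 8 rose (23.5%) and 1 fell (2.94%). In 60 pairs the exons overlapped with starts further apart. There 30 members were tested, 2 rose (6.67%) and 0 fell by the edgeR test (5 members had an unadjusted p under 0.05), and 5 of 46 tested partners rose (10.9%). In 35 pairs the bodies overlapped without shared exon bases, and none of the 11 tested members passed, with 1 at an unadjusted p under 0.05. Rows silent in control-labelled libraries passed the filter through their 2KO-labelled counts alone. No direction is therefore read from the shares of members or partners by layout. Promoter windows were found for 57 tested members, with a median of 9 CG dinucleotides, beside 7 over all windows in the table, of which 94.6% hold at least 1. The windows of the 4 called members with an entry held 28 (Foxl2os), 41 (Hoxa11os), 17 (Vax2os) and 46 (Cep83os), a median of 34.5. The 53 windows of members that did not pass had a median of 8 and a range of 1 to 54. The difference between these sets was not tested.

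Other named long noncoding RNAs were set beside the members, from a list of 30 chosen with earlier results known. Of 22 tested, 7 rose (Airn, Hotair, Tunar, Meg3, Rian, Mirg and Snhg11) and 2 fell (Hotairm1 and Miat). These are 31.8% and 9.09% of those tested, beside 6.61% and 2.42% of all tested genes. Since the list was chosen with earlier results known, nothing is read from how these shares compare. Hotair, which is transcribed from the HoxC cluster against its coding genes, was at 1.90 ± 0.848 CPM in 2KO-labelled libraries and 0.043 ± 0.0746 CPM in the control-labelled ones (SD, n = 3 each, edgeR adjusted p = 0.029). Airn, the antisense transcript of Igf2r, was at 30.8 ± 8.26 CPM and 7.95 ± 0.401 CPM in the same order (edgeR adjusted p = 0.00258). The difference between the 2 lists was not tested.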

How the data were processed

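The authors deposited counts, whole numbers of reads for each of 24453 gene symbols, 1 file per library and not normalized. The submitters' processing notes name mm10 as the build, and as tools HTSeq 0.6.1, TopHat2 2.0.13, DESeq2 1.6.3 and Cufflinks 2.2.1. No source used here states the annotation or the strand setting. No molecular identifiers are mentioned in the labels, so counting limits cover counting error only. Rn45s took 2.35% to 10.3% of counts.

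From these counts, edgeR 4.0.16 (R 4.3.3) kept 14972 genes by filterByExpr, scaled by TMM and compared 3 libraries labelled 2KO with 3 labelled control by the quasi-likelihood test without covariates, with Benjamini-Hochberg adjustment over all tested genes. The SE given with a log2 fold change is its absolute value divided by the square root of that test's F statistic, not a separately fitted standard error. DESeq2 1.42.0 was an alternative. The procedure was tested on simulated data, and the outcome is not given here. Layout came from GENCODE vM21 by symbol, and promoters from RefSeq (GRCm38.p6), for 122 of 154 members. The naming rule took members past the threshold, tested members with a partner past it, the 5 most abundant tested members, and untested members with counts in all libraries of 1 group only. Members and lists were chosen with earlier results of these data known.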

Additional observations from a re-analysis of the deposited data

How the results depend on the processing

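Against 4 higher and 1 lower members and 17 higher and 2 lower partners, DESeq2 gave 7 higher and 4 lower members and 6 lower partners. Over all genes DESeq2 called 1492 higher and 765 lower, beside 989 and 362, and edgeR without both replicate-3 libraries 309 and 72. The 5 members called in the fit of all libraries were among those called with DESeq2, RLE scaling, either other filter, Xist as a covariate, the replicate block or Rn45s left out. No low-count filter gave 3 lower members of 129 tested, beside 474 of 19904 tested genes called lower. A minimum of 1 CPM in 3 libraries gave 2 of 50, beside 366 of 13562. The replicate block gave 2 lower members and 5 lower partners, where 540 of 14972 tested genes were called lower. The deviations of same-numbered libraries correlated at 0.32, 0.096 and -0.13, and not every library correlated best with its own number, so the numbers were not taken as pairs. Xist as a covariate gave 1 lower partner, where 237 of 14972 tested genes were called lower. Without both replicate-3 libraries there were 2 higher and 0 lower members, and 6 higher and 0 lower partners. Without both replicate-1 libraries there were 0 lower members and 1 lower partner, where 262 of 15132 tested genes were called lower. Leaving out each library in turn gave 4 to 5 higher and 0 to 2 lower members, and 11 to 15 higher and 1 to 2 lower partners. Over all genes these fits called 615 to 854 higher and 184 to 347 lower. Of 25 named genes, the log2 fold change turned for 2: leaving out each library gave -0.48 to 0.21 for Wdr83os, above 0 without 2KO replicate 3 or control replicate 3 (0.18), and 0.45 without both. For Slc7a6os it gave -0.31 to 0.046, above 0 without 2KO replicate 3. None of these passed the threshold. The cause of these changes was not tested. Faint members limit what can be seen: 81 of 154 had too few counts for the test.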
